A study of Homo sapiens with 30 samples.

Results

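The comparison described here is that of JQ-1 added to DHT in MR49F prostate cancer cells. Its members are the 3 samples treated with DHT and JQ-1 together and the 3 samples treated with DHT alone, 6 of the 30 RNA-seq samples of the series, and they were chosen by their treatment labels only. The series as a whole compared vehicle, enzalutamide, DHT and JQ-1, alone or combined, in MR49F cells and in their parental line V16D, in full or charcoal-stripped serum. MR49F is an enzalutamide-resistant line derived from LNCaP cells by way of V16D, a castration-resistant line. The results therefore come from a single resistant line. All 6 samples were kept for 72 h in charcoal-stripped serum, which is depleted of androgens, and were then treated for 24 h. The DHT samples received 1 nM of dihydrotestosterone, the most potent natural androgen, and the DHT and JQ-1 samples received the same with 500 nM of JQ-1 added. A further 6 samples from the same serum, 3 with vehicle and 3 with 500 nM JQ-1 alone, give the levels without DHT. Wells were combined in pairs to make a replicate, vehicle was DMSO and ethanol, and no group is a genetic control. The methods of the study call the replicates of a treatment biological. Whether they were grown or treated on separate days is not given in the sources used here, so p-values cover the scatter of these 3 samples alone. The question that the comparison addresses is what a BET bromodomain inhibitor does to the transcripts of these cells while an androgen is present.

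Androgens drive luminal prostate cells by inducing genes such as KLK3, which encodes prostate-specific antigen, through androgen response elements in enhancers and promoters. BET proteins read acetylated histones through paired bromodomains and bring the elongation factor P-TEFb (CDK9 with cyclin T) to promoters and enhancers. JQ-1 fills the pocket that holds the acetylated lysine and so displaces BET proteins from chromatin. Lower MYC and higher HEXIM1, an inhibitor of P-TEFb, are widely used as signs that a BET inhibitor has acted in a cell.

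The sequences of 4 promoters, each with a match to a searched motif, are shown as examples. KLK3 and MYBPC1 are androgen-responsive genes that fell with JQ-1, and SRM and ODC1 are consecutive enzymes of polyamine synthesis, both known as MYC targets, of which the first fell and the second rose. Each run holds the 250 bases before the transcription start, 5′ to 3′ on the gene's strand, from RefSeq on GRCh38.p14. Capitals mark the half-site of the androgen response element (AGAACA on either strand) in KLK3 and MYBPC1 and the MYC E-box (CACGTG) in SRM and ODC1.
KLK3 (chr19:50854665-50854914, plus strand): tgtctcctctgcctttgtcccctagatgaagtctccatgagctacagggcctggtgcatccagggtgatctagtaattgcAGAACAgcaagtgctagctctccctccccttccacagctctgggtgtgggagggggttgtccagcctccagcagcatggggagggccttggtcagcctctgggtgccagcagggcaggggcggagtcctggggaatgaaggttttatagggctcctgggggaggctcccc
MYBPC1 (chr12:101594721-101594970, plus strand): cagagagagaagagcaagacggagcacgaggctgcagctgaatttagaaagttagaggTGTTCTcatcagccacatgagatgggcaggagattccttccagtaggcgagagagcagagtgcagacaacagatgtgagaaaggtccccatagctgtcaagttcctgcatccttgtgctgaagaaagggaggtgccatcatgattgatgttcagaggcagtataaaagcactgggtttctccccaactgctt
SRM (chr1:11060019-11060268, minus strand): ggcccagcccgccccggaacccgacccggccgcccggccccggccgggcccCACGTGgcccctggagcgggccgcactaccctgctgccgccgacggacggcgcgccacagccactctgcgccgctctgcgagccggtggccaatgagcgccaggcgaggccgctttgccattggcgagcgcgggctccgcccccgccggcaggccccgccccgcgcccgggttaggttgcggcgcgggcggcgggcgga
ODC1 (chr2:10448013-10448262, minus strand): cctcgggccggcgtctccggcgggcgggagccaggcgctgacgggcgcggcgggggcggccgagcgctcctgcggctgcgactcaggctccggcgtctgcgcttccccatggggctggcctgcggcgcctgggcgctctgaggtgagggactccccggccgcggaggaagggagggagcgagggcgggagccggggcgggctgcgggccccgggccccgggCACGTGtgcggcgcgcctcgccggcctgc
The marked AGAACA starts 170 bases before the start of KLK3 and 192 bases before that of MYBPC1. The KLK2 window holds no exact copy, but it reads GGAACA before the same run of bases (GCAAGTGCT) that follows AGAACA in KLK3. Only exact matches were searched, so response elements that differ from the consensus, in these or other windows, were not looked for. Of all 35116 promoter windows of this length in the table, 12.4% hold AGAACA on either strand. A single window (0.00285%) holds the exact palindrome, 2 such half-sites facing each other across 3 bases. That is not a count of response elements. Of the 53 windows of androgen-induced genes listed here 3 hold AGAACA (5.66%), against 7.88% of the windows of the genes tested, but only 33 of the 44 genes had an entry, so the comparison of shares is void, and the KLK3 and MYBPC1 windows do not stand for the list. The E-box starts 199 bases before the start of SRM and 29 bases before that of ODC1, and 6.34% of all windows hold it. These matches describe letters and are not evidence of binding.

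The 6 samples had 1356700 to 1813262 reads assigned to genes, only 5.71 to 7.51% of the reads that were assigned or left without a gene, against 72.97 to 77.81% in the full-serum samples of the series. Genes lying opposite a strongly expressed gene carried many of these counts with little FPKM. SNX22, whose exons overlap those of PPIB on the other strand, had a mean of 9496 counts and 2.36 FPKM, and PPIB itself had 1467 counts and 755.0 FPKM. Counting on the strand opposite to the transcript would give such values, and which strand was counted is not given in the sources used here. The FPKM values (fragments per unit of transcript length, relative to all mapped fragments of a sample, estimated separately from the same alignments) place these genes below their partners. FPKM is therefore given first, the counts serve as a second readout of the same libraries, and genes whose exons overlap another gene's on the opposite strand are named as such. Of 5394 genes called on both readouts, 5306 (98.4%) changed in the same direction, and 53 of the 88 that did not (60.2%) overlap a gene on the other strand, against 23.4% of all genes tested on both. In 1 library, replicate 1 of DHT with JQ-1, ribosomal RNA (RNA45S5) took 1.4% of the gene counts, against 0.526 to 0.758% in the other 5, and its part in the results was not tested beyond leaving that library out.

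**Figure D1:**
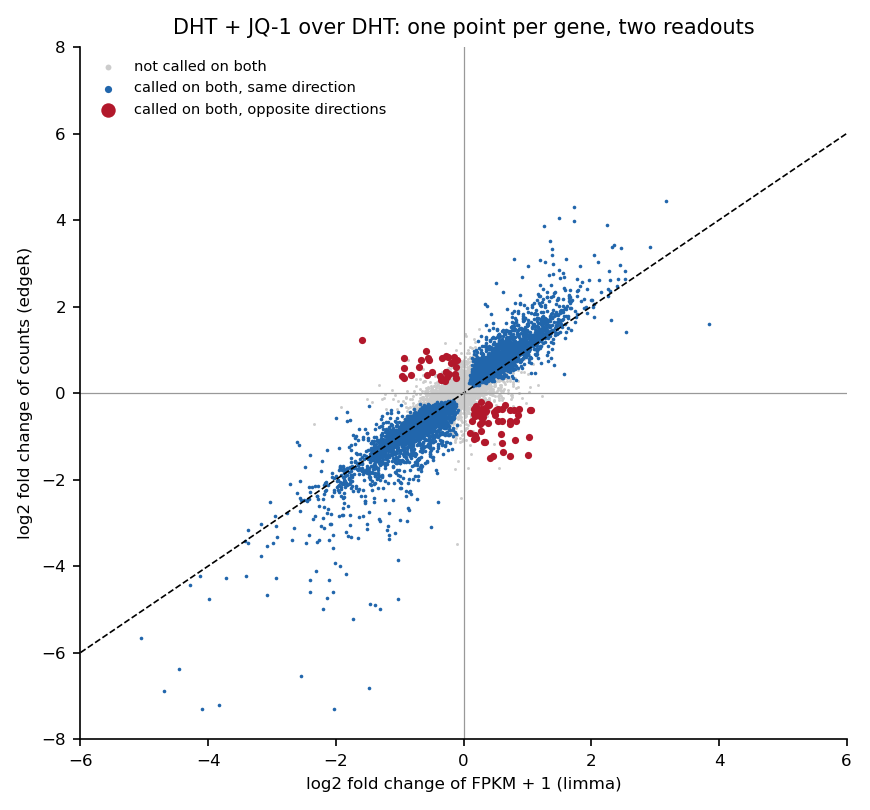
Each point is 1 of the 10246 genes tested on both readouts, with the log2 fold change of DHT with JQ-1 over DHT on FPKM + 1 on the x axis and on counts on the y axis, and the dashed line marks equal values. The 5306 genes called on both in 1 direction lie along the line, and the 88 called in opposite directions lie within 1.6 log2 units of 0 on the x axis.

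JQ-1 changed a large part of the measured transcriptome of DHT-treated cells, in both directions and mostly by less than 2-fold. How large a part depended on the readout and the test. With limma on log2(FPKM + 1), 9344 of 11856 genes tested were called at an adjusted p of at most 0.05 (78.8%), 4205 of them higher (35.5%) and 5139 lower (43.3%) with JQ-1. With TMM scaling of FPKM the majority turned, 4834 higher and 4571 lower. In 80.8% of genes tested the 2 groups did not overlap. At least a 2-fold change was called for 1365 genes (11.5%), of which 459 rose (3.87%) and 906 fell (7.64%). With edgeR's quasi-likelihood test on counts, 5891 of 10779 genes were called (54.7%), 2874 higher (26.7%) and 3017 lower (28%), and 1871 at 2-fold (17.4%), 825 higher (7.65%) and 1046 lower (9.7%). On the same counts the Wald test of DESeq2 called 4539 genes (42.1%) and a two-group test on variance-stabilized counts 4175 (38.7%). On both readouts together, 638 genes fell and 379 rose at least 2-fold. The median log2 fold change of all genes was -0.05, so these counts are the background against which the gene groups are read. A gene that reached the limit for testing, 1 FPKM in at least 3 of the 6 samples, through 1 group alone had to differ between the groups. Such genes are counted beside the lists that hold them, and marked where they are among the largest changes. FPKM is relative to all fragments of a sample, so fewer cells of a kind and less RNA per cell cannot be told apart, nor can a change in total RNA be seen.

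Markers of luminal prostate epithelium were expressed in both groups, at a lower summed level with JQ-1, and those of stroma, endothelium and blood were not. The summed level of 11 luminal markers was 3111 to 3327 FPKM with DHT and 1709 to 1791 FPKM with JQ-1 added. KLK3 and KLK2 are among the 11, and their decreases, given below, make up most of the drop. The sum therefore does not stand for the other markers. Of the 11, 7 fell and 4 rose (against 43.3% and 35.5% of all genes tested), and 3 fell at least 2-fold. All 15 stromal, endothelial and blood markers were under 1 FPKM in all 6 samples, with a summed level of 1.16 to 1.56 FPKM with DHT and 0.982 to 1.3 with JQ-1 added. KRT18, a simple-epithelial keratin whose exons overlap KRT8 on the other strand, went from 501 to 304 FPKM, and KRT19, another such keratin, which reached 1 FPKM with DHT only, from 2.84 to 0.158. CDH1, which encodes E-cadherin, rose from 64.3 ± 0.743 to 103 ± 4.12 FPKM (SD, n = 3). Among 6 basal markers, KRT5, KRT14, KRT15 and TP63 were under 1 FPKM in every sample, and NGFR, a neurotrophin receptor that reached 1 FPKM with JQ-1 only, rose from 0.352 ± 0.0888 to 1.29 ± 0.0269 FPKM.

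The secreted kallikreins KLK3 and KLK2 fell to below their levels with vehicle. KLK3 (chr19:51358171-51364020, plus strand, hg19, as all gene positions here), which encodes prostate-specific antigen, stood at 1212, 1235 and 1327 FPKM with DHT and at 158, 164 and 161 FPKM with DHT and JQ-1. The groups lie far apart, and every JQ-1 sample was also below the 283 FPKM mean of vehicle-treated cells. The mean was 7.81-fold lower, with a log2 fold change of -2.96 ± 0.0467 (SE) and an adjusted p = 3.23e-09 on FPKM and -2.85 and 1.13e-26 on counts. KLK2 (chr19:51364824-51383823, plus strand), a neighbouring kallikrein that can activate the KLK3 protein, fell further, from 214, 213 and 229.8 FPKM to 11.2, 11.3 and 12.2 FPKM. No KLK2 value with JQ-1 reached the vehicle mean of 29.5 FPKM, and the 18.9-fold decrease had a log2 fold change of -4.13 ± 0.0473 (SE) and an adjusted p = 1.15e-09 on FPKM and -4.23 and 5.03e-28 on counts.

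TMPRSS2 (chr21:42836227-42903043, minus strand), a membrane serine protease, had 168, 166 and 176 FPKM with DHT and 46.3, 48.0 and 47.8 FPKM after JQ-1 was added. Its 3.59-fold decrease (-1.82 on FPKM and -1.73 on counts as log2 fold changes, adjusted p = 8.93e-09 by limma) left it above the 23.3 FPKM of vehicle. Its exons overlap MX1 on the other strand, and MX1 was under 1 FPKM in these cells. FKBP5 (chr6:35541362-35696360, minus strand), a co-chaperone of steroid receptors, was 400.4, 405 and 421 FPKM with DHT and 281, 294 and 296 FPKM with DHT and JQ-1, still far above its vehicle mean of 9.5 FPKM. The decrease was 1.41-fold (-0.49 ± 0.041 on the log2 scale, adjusted p = 8.55e-06 by limma). The 2 groups do not overlap. Within the same 6 samples, these 4 androgen-induced genes thus fell by between 1.41-fold and 18.9-fold.

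**Figure D2:**
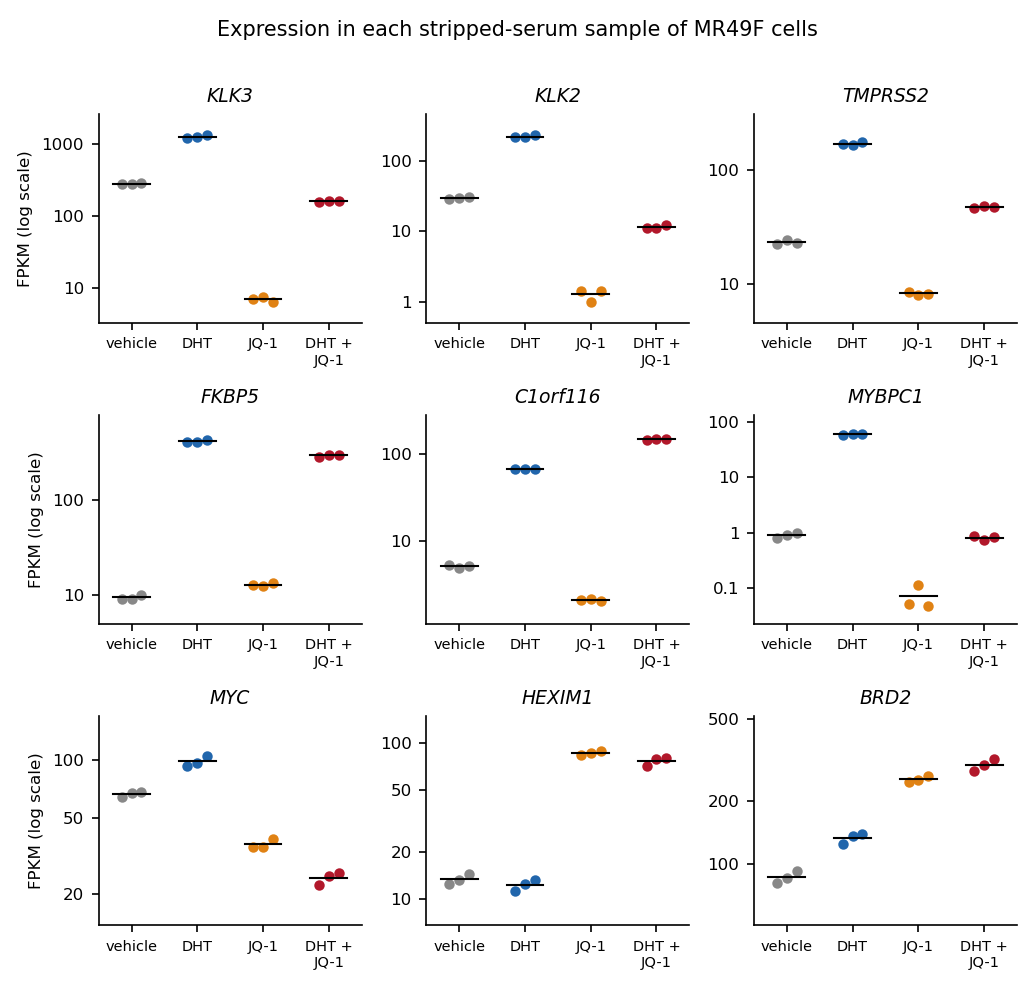
FPKM on a log axis in each of the 12 stripped-serum samples with vehicle, DHT, JQ-1 or both, with points for the 3 replicates and a line at their mean. KLK3, KLK2, TMPRSS2, FKBP5, MYBPC1 and MYC fell when JQ-1 was added to DHT, and C1orf116, HEXIM1 and BRD2 rose.

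Of the wider list of 44 androgen-induced genes, 43 were tested on FPKM, 25 fell and 14 rose, with a median log2 fold change of -0.49, and 15 fell and 2 rose at least 2-fold. On counts 24 fell and 12 rose. Of all genes tested on FPKM, 43.3% fell and 35.5% rose, and 7.64% fell and 3.87% rose at least 2-fold. ACPP, TRPM8, ORM1 and CHRNA2 reached 1 FPKM with DHT only. Besides the kallikreins, the strongest decreases by p-value were those of ACPP, CENPN, SPOCK1 and PMEPA1. CENPN, a centromere protein listed as an androgen-induced gene whose exons overlap CMC2 on the other strand, fell from 159 ± 2.74 to 18.6 ± 0.853 FPKM (8.59-fold). SPOCK1, an extracellular proteoglycan, fell from 20.1 ± 0.471 to 1.35 ± 0.0964 FPKM, and PMEPA1, a membrane protein that dampens TGF-beta signalling, fell from 181 ± 3.86 to 30.2 ± 0.659 FPKM. The 2 members that rose at least 2-fold are named after their values were seen: NCAPD3, a condensin subunit, went from 181, 174 and 173 FPKM to 463, 473 and 458 FPKM, and C1orf116, known as the specifically androgen-regulated gene, from 66.8, 67.1 and 67.7 to 147, 150.2 and 149 FPKM. NCAPD3 overlaps other genes on the opposite strand. Not all listed genes were higher with DHT here: ACPP, STEAP2, FOLH1 and TSC22D3 had lower means with DHT than with vehicle. FOLH1, which encodes prostate-specific membrane antigen, had 422 FPKM with vehicle, 124 with DHT and 104 with DHT and JQ-1.

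Of 20 androgen-repressed genes 8 were expressed enough to be tested, and GRIN3A reached 1 FPKM with DHT only. Of the 8, 6 fell and 2 rose (against 43.3% and 35.5% of all genes tested). CAMK2N1, an inhibitor of the kinase CaMKII, had 177 FPKM with vehicle, 17.1 ± 0.297 with DHT and 4.32 ± 0.242 with JQ-1 added, a further 3.95-fold decrease. DDC, the aromatic amino acid decarboxylase, likewise fell from 25.4 ± 0.344 to 3.97 ± 0.558 FPKM. GRIN3A, a glutamate receptor subunit, fell from 11.6 ± 0.23 to 0.91 ± 0.0948 FPKM, and UGT2B28, an androgen-conjugating enzyme, from 2.58 ± 0.362 to 1.41 ± 0.15. The last pair, like UGT2B11, had higher means with DHT than with vehicle in these cells, although they are on the list of repressed genes. KLF9, a Krüppel-like transcription factor, was 9.76 ± 0.158 FPKM with DHT and 11.3 ± 0.3 with JQ-1 added, a small increase that was called on FPKM (log2 fold change 0.19, adjusted p = 0.00197 by limma) and not on counts (adjusted p = 0.655 by edgeR).

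Of 22 cofactors of steroid receptors and prostate lineage factors tested on FPKM, 11 rose, 6 fell and 5 were not called, and 2 rose at least 2-fold. These shares are near those of all genes tested (78.8% called and 11.5% at 2-fold). FOXA1, a pioneer factor that opens chromatin for other factors, rose from 100.3 ± 3.3 to 162 ± 6.48 FPKM. The 2 that rose at least 2-fold were the coactivator NCOA3, from 3.29 ± 0.0255 to 8.81 ± 0.278 FPKM, and the corepressor TLE1, from 3.47 ± 0.243 to 10.2 ± 0.391 FPKM. SMARCA4, the ATPase of the SWI/SNF remodeler, fell from 42.9 ± 0.439 to 31.2 ± 0.36 FPKM. CTBP1, a corepressor, rose from 49.2 ± 1.56 to 87.8 ± 3.28 FPKM, while its counts went down (log2 fold change -0.65, adjusted p = 1.09e-07 by edgeR), so its direction depends on the readout. NCOA3 overlaps SULF2 on the other strand.

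Genes lowered by an antiandrogen in the parental line, a list taken from other samples, mostly fell. In V16D cells in full serum, 214 of 14079 genes tested on counts were called and at least 2-fold lower with enzalutamide (1.52%), and 143 of them were tested on FPKM here. Adding JQ-1 to DHT in MR49F cells lowered 102 of these and raised 28, with a median log2 fold change of -0.90 and quartiles of -1.54 and -0.08. Of the 143, 36 reached 1 FPKM with DHT only and 3 with JQ-1 only. These had to differ, and they remain in the numbers given here. How many of all genes tested were such genes was not counted, so the shares are a description. At least a 2-fold decrease was called in 63 (44.1%, against 7.64% of all genes tested) and a 2-fold increase in 10 (6.99%, against 3.87%). On counts, 53 of 121 fell at least 2-fold (43.8%, against 9.7% of all genes tested) and the median was -0.81. Of these 121, 23 were under 1 FPKM in every sample with DHT and JQ-1, and 6 in every sample with DHT alone.

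The 12 largest decreases were ranked on the log2(FPKM + 1) scale. Except for ACPP, which had been lower, these genes had higher means with DHT than with vehicle. The same DHT samples enter both comparisons, so ranking by the decrease favours such genes, and this is not a result about them. MYBPC1 (chr12:101962131-102079806, plus strand), a myosin-binding protein first known from slow muscle, went from 58.5, 58.9 and 60.9 FPKM to 0.862, 0.744 and 0.839 FPKM, near the vehicle mean of 0.904 FPKM. The decrease was 72.9-fold, with a log2 fold change of -5.06 ± 0.0436 (SE) and an adjusted p = 2.41e-10 on FPKM and -5.67 and 9.95e-26 on counts. Of the 2 groups, MYBPC1 and ACPP reached 1 FPKM only with DHT alone, so a difference was fixed by the limit for testing. ACPP, prostatic acid phosphatase, differed in that DHT had not raised it: its mean was 209 FPKM with vehicle, and its samples stood at 44.6, 47.5 and 49.5 FPKM with DHT and 0.902, 0.79 and 0.91 FPKM with DHT and JQ-1. NPPC, the C-type natriuretic peptide, went from 45.9, 50.2 and 50.9 to 1.2, 1.22 and 1.38 FPKM.

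ADAMTS1, a secreted metalloprotease, had 120.4, 119 and 117 FPKM with DHT and 5.04, 5.14 and 5.18 FPKM with JQ-1 added, a 23.2-fold decrease to below its vehicle mean of 68.5 FPKM. The long non-coding RNA LINC00161 stood at 17.0, 15.4 and 18.3 FPKM with DHT and was listed at 0 in 2 of the 3 samples with JQ-1. ORM1, an acute-phase plasma protein, fell from 16.8 ± 2.4 to 0.356 ± 0.259 FPKM and CHRNA2, a nicotinic receptor subunit, from 14.9 ± 0.403 to 0.496 ± 0.0765 FPKM. GREB1, a cofactor of steroid receptors, fell from 27.6 ± 0.935 to 1.67 ± 0.127 FPKM. BHLHA15, a transcription factor of secretory cells, fell from 22.6 ± 1.97 to 0.653 ± 0.0309 FPKM, and it overlaps TECPR1 on the other strand. NUPR1, a small stress-induced chromatin protein, fell from 178 ± 15.6 to 16.3 ± 2.06 FPKM. In each of these genes the 6 samples separate into 2 groups without overlap on either readout, as the rule that chose them required. Of the 2 groups, ORM1, CHRNA2 and BHLHA15 reached 1 FPKM only with DHT alone, so they had to differ. LINC00161 passed that limit through its DHT samples.

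The largest increases included an RNA editing enzyme, regulators of transcription and a structural RNA. LOC100507412, an uncharacterised transcript, rose from 7.54, 8.59 and 6.96 FPKM to 116.2, 126 and 129 FPKM, 16.1-fold, while on counts its log2 fold change was smaller (1.6, against 3.85 on FPKM). DPYSL3, a cytoskeletal adaptor of growing neurites, went from 0.6, 0.605 and 0.676 to 13.9, 13.3 and 13.9 FPKM, 21.9-fold. ADARB1, which edits adenosines in RNA and overlaps SSR4P1 on the other strand, went from 3.7, 3.72 and 3.65 to 33.4, 35.4 and 35.0 FPKM. These 3 genes share low levels with DHT and values with JQ-1 that leave no overlap. DPYSL3 reached 1 FPKM with JQ-1 only, so it had to differ between the groups.

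CITED2, which competes for the coactivators CBP and p300, rose from 34.5 ± 1.41 to 204 ± 10.5 FPKM and HES6, a basic helix-loop-helix regulator, from 7.01 ± 0.289 to 42.9 ± 3.21 FPKM. RHOB, a small GTPase, rose from 35.4 ± 2.77 to 192 ± 6.34 FPKM and SH3GL2, an endocytosis protein, from 0.671 ± 0.253 to 8.18 ± 0.541 FPKM. SH3GL2 also reached 1 FPKM with JQ-1 only. NEAT1, the RNA on which nuclear paraspeckles are built, had 65.8, 65.1 and 64.5 FPKM with DHT and 345, 353 and 355 FPKM with DHT and JQ-1, a 5.39-fold increase (log2 fold change 2.41 ± 0.0334, adjusted p = 1.93e-09 by limma).

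Among the BET proteins themselves, BRD2 rose and BRD3 fell slightly. BRD2 stood at 124, 136 and 139 FPKM with DHT and 282, 299.7 and 321 FPKM with JQ-1 added (2.26-fold, adjusted p = 5.58e-07 by limma). Its counts, a mean of 12.3 with DHT and 16 with JQ-1, were few and not called (log2 fold change 0.18, adjusted p = 0.684 by edgeR), and its exons overlap HLA-DMA on the other strand. BRD3 went from 21.7 ± 0.209 to 19.4 ± 0.414 FPKM (log2 fold change -0.15 ± 0.035, adjusted p = 0.00357 by limma).

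HEXIM1 (chr17:43225842-43229466, plus strand), which holds P-TEFb in its inactive complex with 7SK RNA, rose from 11.3, 12.4 and 13.3 FPKM to 71.9, 79.4 and 80.2 FPKM, 6.25-fold with a log2 fold change of 2.55 ± 0.0639 (SE) and an adjusted p = 1.95e-08 on FPKM and 1.42 and 4.24e-16 on counts. The groups lie far apart, and the DHT samples were close to the vehicle mean of 13.5 FPKM. Of the 28 tested genes of the BET and P-TEFb list, 10 rose and 9 fell, near or under the shares of all genes tested (35.5% and 43.3%). At least a 2-fold increase was called in 5 of the 28, against 3.87% of all genes tested. These were HEXIM1, BRD2, MLLT3, AFF1 and SERPINI1. The last encodes neuroserpin and is on the list as a gene that BET inhibitors raise. MLLT3 and AFF1, both parts of super elongation complexes, rose from 5.09 ± 0.119 to 12.7 ± 0.215 and from 6.22 ± 0.283 to 14.3 ± 0.239 FPKM. NELFCD, a subunit of the pausing factor NELF that overlaps CTSZ on the other strand, fell from 46.2 ± 0.566 to 25.4 ± 0.395 FPKM. CDK9 and CCNT1, the core of P-TEFb, had means of 20.5 and 9.62 FPKM with DHT and 21.9 and 9.95 FPKM with JQ-1, and neither was called on FPKM (adjusted p = 0.0692 and 0.442 by limma). On counts CDK9 just passed (log2 fold change 0.31, adjusted p = 0.0489 by edgeR).

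Most histone genes whose transcripts are polyadenylated rose. Of 15 tested, 13 rose and 1 fell (against 35.5% and 43.3% of all genes tested). At least a 2-fold increase was called in 11, and the median log2 fold change was 1.58, while on counts 11 of 13 rose. HIST1H1C, a linker histone, went from 100.1, 97.1 and 95.8 FPKM to 404, 419.8 and 397 FPKM, and HIST2H2BE, a core histone, from 98.5, 101 and 108 to 397, 427 and 431 FPKM. The increases were 4.17-fold and 4.08-fold, with no overlap between groups. H1F0, the linker histone of resting cells, rose from 33.6 ± 0.978 to 92.2 ± 2.69 FPKM, HIST1H2BJ from 2.92 ± 0.333 to 14.6 ± 0.63 FPKM and HIST2H2BF from 25.5 ± 2.63 to 107 ± 3.44 FPKM. HIST1H2BK fell, from 138 to 97.4 FPKM, and H3F3A was not called (log2 fold change 1.07, adjusted p = 0.0567 by limma). Histone genes have near-identical copies, so reads could be shared among them, and the values of single members are uncertain for that reason.

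MYC, the growth-promoting transcription factor, had 93.9, 97.5 and 105 FPKM with DHT and 22.2, 24.7 and 25.5 FPKM after JQ-1 was added. Every JQ-1 sample was below every vehicle sample, whose mean was 66.5 FPKM. The decrease was 4.09-fold, with a log2 fold change of -1.99 ± 0.0609 (SE) and an adjusted p = 4.21e-08 on FPKM and -2.04 and 6.43e-20 on counts. Of the 11 tested members of the MYC network, 6 fell and 3 rose (against 43.3% and 35.5% of all genes tested). MXD1 and MXD4, which compete with MYC for MAX and repress its targets, rose from 2.18 ± 0.133 to 5.2 ± 0.118 and from 45.9 ± 2.74 to 79.4 ± 3.23 FPKM. MNT, another antagonist, fell from 8.49 ± 0.559 to 3.5 ± 0.328 FPKM, as did MLX, from 37.5 ± 1.38 to 22.6 ± 0.298 FPKM.

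Growth genes that MYC is known to activate mostly fell: 28 of 30 fell (against 43.3% of all genes tested), 1 rose and 1 was not called. The median log2 fold change was -0.98, and 13 were at least 2-fold lower. On counts 23 of 27 fell. NOP16, a nucleolar protein, fell from 52.2 ± 2.11 to 12.6 ± 0.883 FPKM and RRS1, a ribosome assembly factor, from 28.1 ± 1.41 to 7.83 ± 0.29 FPKM. WDR43, a factor of ribosomal RNA transcription, fell from 30.2 ± 0.496 to 12.9 ± 0.243 FPKM. LDHA, lactate dehydrogenase A, fell from 204 ± 1.96 to 102 ± 1.98 FPKM, and HSPE1, the mitochondrial co-chaperonin, from 203 ± 6.91 to 93.9 ± 1.34 FPKM. HSPE1 overlaps its neighbour HSPD1 on the other strand, and NOP16 overlaps ARL10 and HIGD2A. The gene that rose is ODC1, and FASN, fatty acid synthase, was not called (489.8 to 508 FPKM, adjusted p = 0.233 by limma). Of 33 promoter windows of the 26 list genes found in the table, 8 (24.2%) hold the E-box CACGTG. The share was 6.34% of all windows and 8.43% of those of the genes tested (79.7% of genes tested had an entry). The windows of HSPD1 and HSPE1 overlap and hold the same site, which is counted in both. The list was chosen as MYC targets and lacks entries for some genes, so the shares are a description only.

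Genes of DNA replication fell almost without exception. Of 39 tested on FPKM 37 fell, and the other 2, CDC7 and GINS4, did not pass the test (7.93 to 7.92 and 3.88 to 3.39 FPKM, adjusted p = 0.973 and 0.101 by limma). At least a 2-fold decrease was called in 24 (against 7.64% of all genes tested), and the median log2 fold change was -1.29. MCM10, CDT1 and POLE2 reached 1 FPKM with DHT only. On counts 33 of 36 fell. MCM5, a subunit of the replicative helicase, fell from 21.1, 21.7 and 21.9 FPKM to 1.98, 1.71 and 1.84 FPKM, 11.7-fold. Its partners MCM2 and MCM4 fell from 31.6 ± 0.612 to 6.33 ± 0.367 and from 31.1 ± 0.912 to 8.37 ± 0.281 FPKM. CDC6, which loads that helicase, fell from 23.8 ± 0.241 to 4.48 ± 0.0666 FPKM, and RRM2, the regulated subunit of ribonucleotide reductase, from 28.8 ± 0.641 to 4.04 ± 0.428 FPKM. The summed FPKM of the 39 genes was 689 to 718 with DHT and 291 to 300.1 with JQ-1 added, ranges that do not overlap.

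Of 24 G1 genes tested, 16 fell and 8 rose (against 43.3% and 35.5% of all genes tested). The 8, named after their values were seen, were the CDK inhibitors CDKN1A, CDKN1B, CDKN1C, CDKN2B, CDKN2C and CDKN2D with CCND3, a D-type cyclin, and RB1, the retinoblastoma gene. CDC25A, the phosphatase that frees CDK2, fell from 10.9 ± 0.0967 to 1.38 ± 0.0906 FPKM, 7.88-fold, and E2F1 and E2F8, transcription factors of S phase, fell from 18.2 ± 0.237 to 5.27 ± 0.152 and from 2.79 ± 0.148 to 0.406 ± 0.0747 FPKM. CDK4, which overlaps TSPAN31 on the other strand, went from 56.8 ± 1.28 to 28.2 ± 1.4 FPKM, a log2 fold change of -0.98, but of only -0.28 on counts (adjusted p = 0.0365 by edgeR, and 0.137 by the Wald test of DESeq2). CDKN2B, an inhibitor of CDK4, rose from 0.35 ± 0.0676 to 2.96 ± 0.231 FPKM. The other 2 increases of at least 2-fold were those of CDKN2D, from 7.9 to 26.5 FPKM, and CDKN1C, from 1.78 to 6.2 FPKM. E2F2, E2F7 and E2F8 reached 1 FPKM with DHT only and CDKN2B with JQ-1 only.

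The median change of mitotic genes was smaller than that of replication genes. Of 38 tested 24 fell and 5 rose (against 43.3% and 35.5% of all genes tested), with a median log2 fold change of -0.26. On the log2(FPKM + 1) scale, the 1 decrease of at least 2-fold was that of UBE2C, a ubiquitin-conjugating enzyme of mitotic exit, from 32.1 ± 2.99 to 12.3 ± 1.17 FPKM. On counts 14 of 35 fell, 3 of them at least 2-fold, 2 rose and 19 were not called. BUB1B and MAD2L1, both of the spindle checkpoint, fell from 11.3 ± 0.583 to 5.64 ± 0.262 and from 18.9 ± 1.51 to 9.45 ± 0.517 FPKM. TPX2, a spindle assembly factor, fell from 21.1 ± 0.225 to 12.6 ± 0.694 FPKM, and FOXM1, a transcription factor of mitotic genes that overlaps ITFG2 on the other strand, from 25.4 ± 0.231 to 13.5 ± 1.13 FPKM. TOP2A and PLK1 had nearly equal means, 13.3 and 13.9 FPKM with DHT and 13.4 and 13.9 FPKM with JQ-1, and were not called (adjusted p = 0.893 and 0.964 by limma).

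**Figure D3:**
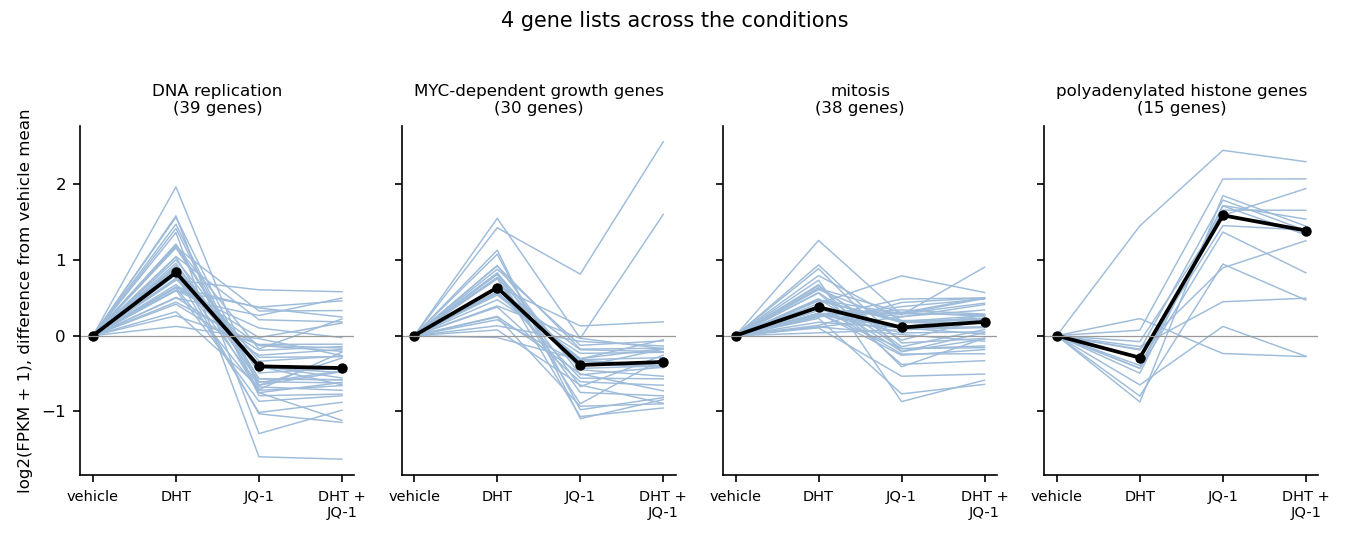
Each thin line is 1 gene, drawn as the difference of its mean log2(FPKM + 1) from vehicle in the 4 conditions, and the thick line is the median of the list. The median of the 39 replication genes lay at 0.83 with DHT and at -0.43 with DHT and JQ-1, close to the -0.40 of JQ-1 alone, and that of the 15 histone genes at -0.29 and 1.39.

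Polyamines are abundant in prostate secretion, and some of the genes that make and break them showed large changes, in both directions. Of 14 genes 5 rose and 7 fell, shares near those of all genes tested (35.5% higher and 43.3% lower). At least a 2-fold change was called in more of them, 2 higher and 4 lower, against 3.87% and 7.64% of all genes tested. SMS, spermine synthase, fell from 743, 769 and 794 FPKM to 181, 189 and 190.4 FPKM, 4.11-fold, and stayed above its vehicle mean of 90.6 FPKM. SRM, spermidine synthase, fell from 143, 154 and 167 to 37.6, 41.6 and 43.5 FPKM, below vehicle (72.9 FPKM). AMD1, which makes the aminopropyl donor for both, fell from 119 ± 4.74 to 57.6 ± 1.03 FPKM.

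ODC1, ornithine decarboxylase, the first enzyme of the pathway, rose instead, from 508, 502 and 517 FPKM to 1095, 1138 and 1122 FPKM (2.2-fold). SAT1, which acetylates spermidine and spermine for export or breakdown, had the largest increase of the list, from 88.1, 86.1 and 94.5 FPKM to 423, 449.6 and 426 FPKM, 4.83-fold with a log2 fold change of 2.26 ± 0.0473 (SE) and an adjusted p = 9.72e-09 on FPKM and 2.24 and 2.31e-21 on counts. SAT1 was 17.3 FPKM with vehicle and 40.2 with JQ-1 alone, and the 3 samples with both agents were the highest of the 12. SRM and ODC1, whose promoters are printed above and both hold CACGTG, thus moved in opposite directions.

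Of 33 genes of lipid synthesis 12 rose and 15 fell, shares near those of all genes tested (35.5% higher and 43.3% lower), and ELOVL6 reached 1 FPKM with DHT only. FDFT1, squalene synthase, rose from 122, 119 and 126 FPKM to 316, 324 and 318 FPKM, and INSIG1, which restrains SREBP processing, from 47.7 ± 0.407 to 82.3 ± 1.49 FPKM. The fatty acid enzymes named by their p-values fell: ACLY, ATP citrate lyase, from 132 ± 0.716 to 63.1 ± 2.47 FPKM, ACACA, acetyl-CoA carboxylase, from 100.4 ± 3.74 to 53.5 ± 0.941 FPKM, and ELOVL5, an elongase of polyunsaturated fatty acids, from 161 ± 1.74 to 58.3 ± 1.57 FPKM. FASN, on this list too, was not called.

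Of 17 glycosylation genes tested, 11 fell and 5 rose (against 43.3% and 35.5% of all genes tested). The median log2 fold change was -0.57, and GCNT2 and CSGALNACT1 reached 1 FPKM with DHT only. ST6GALNAC1, which makes the sialyl-Tn antigen, went from 40.9, 43.0 and 44.8 FPKM to 1.49, 1.84 and 2.01 FPKM, 24.1-fold lower. CSGALNACT1, which starts chondroitin sulfate chains, fell from 5.55 ± 0.291 to 0.232 ± 0.0213 FPKM, GALNT7, a mucin-type glycosyltransferase, from 21.9 ± 0.827 to 7.69 ± 0.168 FPKM, and GNPNAT1, of the hexosamine pathway, from 36.8 ± 1.22 to 14.6 ± 0.249 FPKM. ST3GAL1, a sialyltransferase of core O-glycans, rose from 15.2 ± 0.369 to 37.5 ± 0.573 FPKM. Only 1 gene of the 17, ST3GAL4, was not called (adjusted p = 0.0572 by limma).

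Most genes of protein folding in the secretory pathway fell. Of 29 genes of the unfolded protein response and ER folding, 23 fell and 4 rose (against 43.3% and 35.5% of all genes tested). At least a 2-fold decrease was called in 7, and the median was -0.53. CREB3L4, an ER-anchored transcription factor of the prostate, fell from 90.5, 88.8 and 92.9 FPKM to 8.09, 8.41 and 7.15 FPKM, 11.5-fold, and it overlaps JTB and SLC39A1 on the other strand. XBP1, the effector of the IRE1 arm, fell from 76.6 ± 2.34 to 32.7 ± 1.2 FPKM, and TRIB3, a pseudokinase induced by ATF4, from 24.7 ± 0.37 to 5.13 ± 0.157 FPKM. DNAJC10, an ER disulfide reductase, and CREB3L2, related to CREB3L4, fell from 29.5 ± 0.775 to 13.3 ± 0.377 and from 22.8 ± 0.118 to 12.03 ± 0.0734 FPKM.

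Immediate early genes mostly rose, 10 of 16 tested against 4 that fell, with a median of 0.56, where 35.5% of all genes tested rose and 43.3% fell. JUN went from 7.85, 8.73 and 9.32 FPKM to 51.3, 56.5 and 55.2 FPKM, 6.3-fold. ATF3, a stress-induced transcription factor, rose from 5.18 ± 0.362 to 16.7 ± 1.1 FPKM and FOSL2, a partner of JUN, from 8.96 ± 0.338 to 21.7 ± 0.459 FPKM. DUSP4, a MAP kinase phosphatase, fell from 11.3 ± 0.416 to 3.55 ± 0.158 FPKM. MYC is also on this list and fell, as given above.

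Of 16 neuroendocrine and neuronal genes only 5 reached the limit for testing, too few to describe the group, so only their values are given. SYP, synaptophysin, rose from 1.63 ± 0.337 to 7.29 ± 0.405 FPKM, TUBB3, a neuronal tubulin, from 10.3 ± 0.773 to 28.5 ± 1.31 FPKM, NCAM1, a neural adhesion molecule that reached 1 FPKM with JQ-1 only, from 0.218 ± 0.0653 to 2.21 ± 0.0101 FPKM and ENO2, neuron-specific enolase, from 8.6 ± 0.149 to 16.4 ± 0.247 FPKM. DLL3, a Notch ligand, fell from 3.39 ± 0.242 to 1.63 ± 0.0919 FPKM. The defining genes CHGA, INSM1 and NEUROD1 were all under 1 FPKM in every sample, and 11 of the 16 were.

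**Figure D4:**
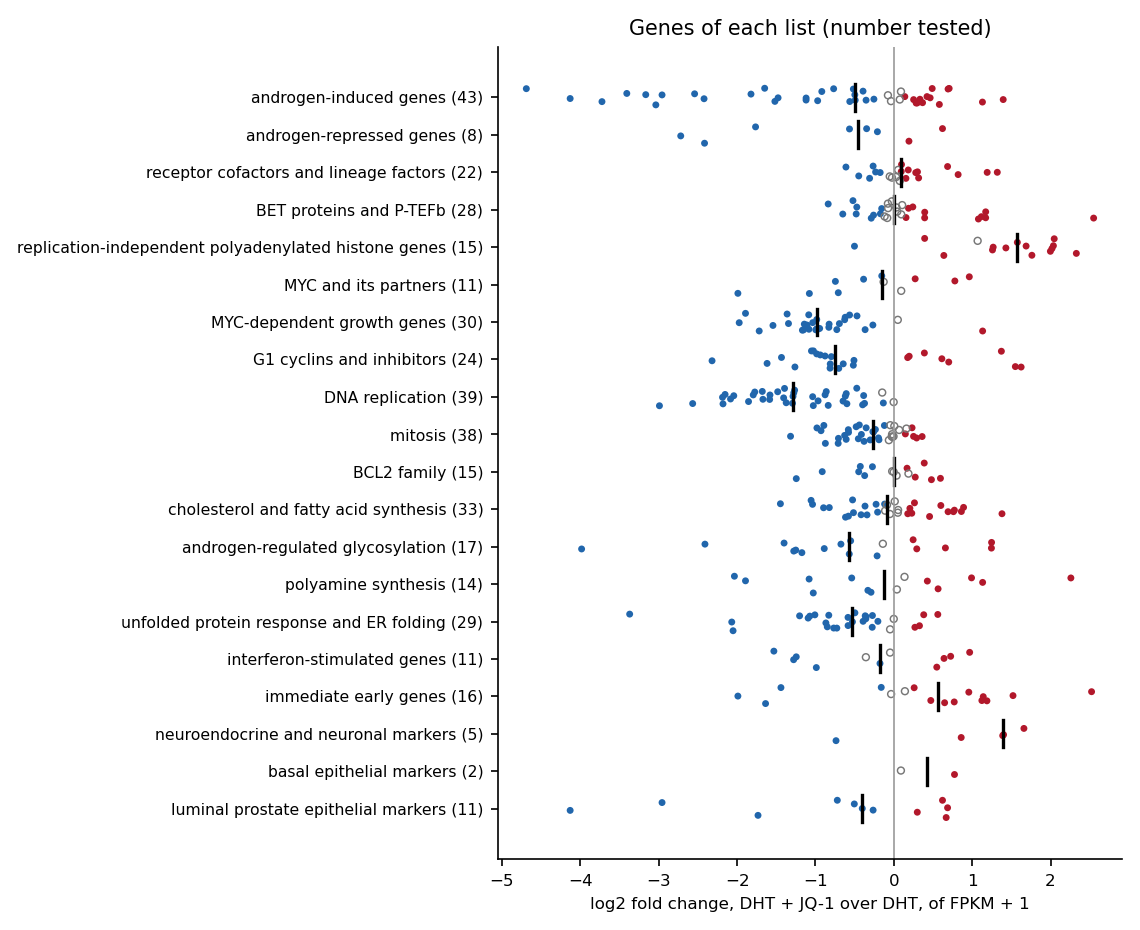
Log2 fold changes of FPKM + 1 for DHT with JQ-1 over DHT, 1 point per tested gene of each list, filled red (higher) or blue (lower) where called by limma and open where not, with a bar at each list's median. Replication genes (median -1.29) and MYC-dependent growth genes (-0.98) lie to the left, polyadenylated histone genes (1.58) to the right, and androgen-induced genes spread from -4.69 to 1.40.

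Whether DHT altered the response to JQ-1 was tested in the 12 samples with vehicle, DHT, JQ-1 or both. The change with JQ-1 in the absence of DHT comes from 6 samples that do not enter the main comparison, where 75.1% of genes tested were called. Across 11654 genes tested in both, which are not independent replicates, Pearson's r of the 2 log2 fold changes was 0.806 and Spearman's rho 0.816, given as a description. Of 1263 genes called in both and changed at least 2-fold with DHT present, 1248 went in the same direction without it. HEXIM1 was 6.44-fold higher with JQ-1 than with vehicle and 6.25-fold higher in the presence of DHT. The polyadenylated histone genes had medians of 1.52 without and 1.58 with DHT.

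Differences in size were common all the same. The interaction was called for 5983 of 12469 genes on FPKM (48.0%), 3119 higher (25%) and 2864 lower (23.0%), and for 1428 of 11572 on counts (12.3%), 670 higher (5.79%) and 758 lower (6.55%). With TMM scaling of FPKM the majority turned here too, 2748 higher and 3330 lower. It reached 2-fold in 321 genes on FPKM (2.57%), 180 higher (1.44%) and 141 lower (1.13%), and in 430 on counts (3.72%), 267 higher (2.31%) and 163 lower (1.41%). On FPKM, 38 of 39 replication genes had a lower interaction term, as had 26 of 30 MYC-dependent growth genes and 28 of 38 mitotic genes. The corresponding medians of the change with JQ-1 were -0.40 without and -1.29 with DHT for replication, -0.39 and -0.98 for growth genes, and 0.11 and -0.26 for mitosis. The plot of lists by condition shows the levels behind these terms: the medians were higher with DHT than with vehicle, and with JQ-1 present they lay close together with and without DHT.

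Positive interaction terms, a smaller decrease or a larger increase when DHT was present, were a minority among the androgen-induced genes, 15 higher against 24 lower of 43 tested on FPKM. Among the 11 luminal markers 6 terms were higher and 5 lower, so all were called, against 48.0% of all genes tested. KLK3 was 40.3-fold lower with JQ-1 alone, at 6.97, 7.61 and 6.45 FPKM, against 7.81-fold with DHT, an interaction of 2.19 ± 0.0708 (SE, adjusted p = 7.6e-10) on the log2 scale. C1orf116 was 2.43-fold lower with JQ-1 alone (5.13 to 2.11 FPKM) and 2.21-fold higher with both agents than with DHT, an interaction of 2.11 ± 0.0442 (SE, adjusted p = 3.84e-11). MAOA, monoamine oxidase A, fell from 194, 200.4 and 201 FPKM with vehicle to 49.6, 45.6 and 47.7 with JQ-1 alone, whereas with DHT it had 287, 274 and 278 FPKM and with both 265, 265 and 265 FPKM. The last 2 groups differ by little and were not called (adjusted p = 0.0822 by limma). C1orf116, MAOA and the genes of the next 2 paragraphs, except MYC, were picked by their interaction p-values, so their terms had to pass.

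STEAP2, a metalloreductase of the prostate, fell from 189 to 72.6 FPKM without DHT and rose from 167 ± 7.56 to 250.4 ± 3.78 FPKM with it. SERPINI1 fell from 124 to 33.9 FPKM without DHT and rose from 10.5 ± 0.94 to 24.0 ± 0.946 FPKM with it. TNFRSF10B, the TRAIL receptor DR5, which overlaps RHOBTB2 on the other strand, had 33.0 and 28.4 FPKM without DHT and rose from 90.8 ± 1.64 to 252 ± 4.9 FPKM with it, the highest level of the 4 conditions. C11orf92 fell in both settings, from 39.9 to 0.491 FPKM without DHT and from 11.1 to 2.13 FPKM with it.

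Several genes with negative terms had low levels without DHT. CRISP3, a secreted protein of the male tract, had 10.98 FPKM with vehicle and 10.3 with JQ-1 alone, and fell from 108, 107 and 109 FPKM to 15.4, 14.7 and 14.9 FPKM with DHT, an interaction of -2.68 ± 0.0472 (SE, adjusted p = 1.03e-11). SPOCK1, CHRNA2 and ST6GALNAC1 had means under 1 FPKM both with vehicle and with JQ-1 alone, so their large terms (-3.10, -3.39 and -3.67) are close to their log2 fold changes with DHT present (-3.17, -3.41 and -3.98). PMEPA1 went from 19.0 to 11.8 FPKM and GREB1 from 1.91 to 0.228 FPKM without DHT. MYC also had a negative term, -1.14 ± 0.0807 (SE, adjusted p = 4.96e-07): it was 1.82-fold lower with JQ-1 alone and 4.09-fold lower with DHT present, and the 3 samples with both agents were the lowest of the 12.

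**Figure D5:**
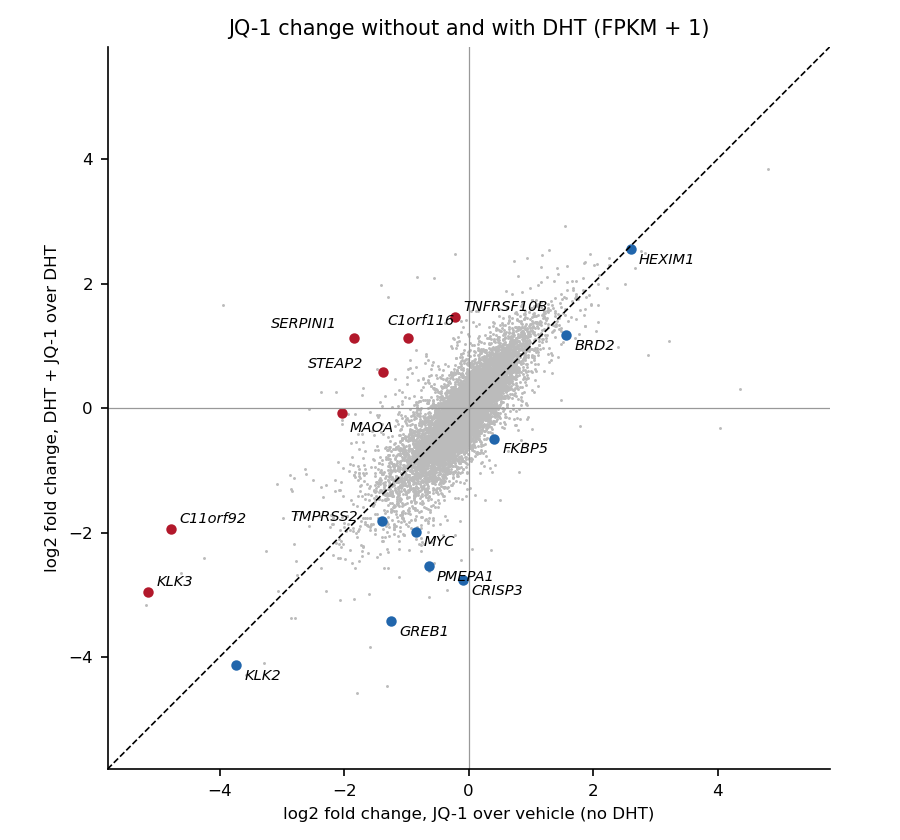
Log2 fold change of FPKM + 1 with JQ-1 over vehicle (x axis) and with DHT and JQ-1 over DHT (y axis) for 11654 genes in grey, with equal changes on the dashed line. Named genes are red where the change with DHT is the higher and blue where it is the lower: KLK3 lies at -5.15 and -2.96, MYC at -0.85 and -1.99, and HEXIM1 near the line at 2.60 and 2.55.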

How the data were processed

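Strand-specific libraries of poly(A) RNA from MR49F and V16D cells gave single-end reads, which the authors aligned to hg19 with TopHat 2.0.9. From these alignments the authors made the deposited counts of reads for every gene symbol, with HTSeq and without normalization, and FPKM for each RefSeq transcript from Cufflinks 2.1.1. Here the FPKM of a symbol's transcripts were added up. The labels of the samples gave their groups and replicate numbers. Counts were tested with edgeR 4.0.16 (glmQLFit and glmQLFTest, TMM, filterByExpr), and log2(FPKM + 1) of genes with at least 1 FPKM in at least 3 samples with limma 3.58.1 (eBayes with trend), in R 4.3.3. Benjamini-Hochberg adjusted p-values over all genes tested were called at 0.05. Unless given for counts, log2 fold changes and calls of at least 2-fold are on the log2(FPKM + 1) scale, which understates changes of low genes. Other folds are ratios of mean FPKM. SE is the standard error of the log2 fold change and SD that of the 3 replicates. The fits were tested on simulated data.

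The members and the 21 gene lists were chosen with earlier results of these data known. The genes named are KLK3, KLK2, TMPRSS2, FKBP5, MYC, HEXIM1 and BRD2, the 12 largest decreases and 10 largest increases on FPKM among genes called on both readouts with no overlap of groups and a mean of at least 3 FPKM and 5 CPM, up to 5 members of each list by p-value, and the 6 smallest p-values of the interaction in each direction. Some genes are not reported here. Other list members, mostly those that were not called, are named after their values were seen. Alternatives were other filters, pseudocounts and scalings, DESeq2 1.42.0, a two-group test on variance-stabilized counts, all 18 stripped-serum samples in a single fit, a replicate block and leaving out each replicate. Gene positions are those of GENCODE on hg19, matched for 20574 of 23710 symbols. Promoters are from RefSeq on GRCh38.p14. The depth, 1356700 to 1813262 reads on genes per sample, limits precision for low counts.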

Additional observations from a re-analysis of the deposited data

Results flagged for a closer look

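The change with JQ-1 differed between cells with and without DHT, by the interaction term in limma on log2(FPKM + 1), for 18 of the genes for which it is reported. The term was positive, so that JQ-1 lowered the gene less or raised it more in the presence of DHT, for KLK3 (2.19), C1orf116 (2.11), SERPINI1 (2.96), C11orf92 (2.83), MAOA (1.96), STEAP2 (1.95) and TNFRSF10B (1.67), all in log2 units. It was negative for KLK2 (-0.39), TMPRSS2 (-0.43), FKBP5 (-0.90), MYC (-1.14), BRD2 (-0.39), CRISP3 (-2.68), CHRNA2 (-3.39), SPOCK1 (-3.10), ST6GALNAC1 (-3.67), PMEPA1 (-1.90) and GREB1 (-2.18). On counts, the terms of KLK2 and BRD2 did not pass (0.08 and -1.09, with adjusted p = 0.891 and 0.208 by edgeR), and the other 16 passed. Only KLK3, KLK2, TMPRSS2, FKBP5, MYC and BRD2 were named whatever their values. The others were picked by the smallest interaction p-values among genes called on both readouts, so their passing was required by the choice. CHRNA2, SPOCK1 and ST6GALNAC1 had means under 1 FPKM both with vehicle and with JQ-1 alone. HEXIM1 was not called on FPKM (-0.05, adjusted p = 0.658 by limma). On counts its term was 0.51 with an adjusted p = 0.00621 by edgeR. All groups here hold 3 samples, too few for the test of single outlying samples.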

How the results depend on the processing

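Of 2946 recomputed log2 fold changes of the 119 named genes, 2920 kept their direction and their side of the threshold, 20 lost and 1 gained the call, and 5 turned direction, all in values that were called neither before nor after. These were BRD2 on counts without DHT replicate 2 or 3 or DHT with JQ-1 replicate 3 (-0.01, -0.08 and -0.01, and up to 0.78 without other single replicates), KLF9 on counts without DHT with JQ-1 replicate 3 (-0.0, and up to 0.15) and MAOA on FPKM with TMM scaling (0.01). All 20 losses were on counts, in CDK4, ENO2, MAD2L1, OAS3 and UBE2C, and the gain was on FPKM, in MAOA with all 18 samples in the fit (-0.08). The count call of CDK4 was lost without DHT replicate 1, DHT replicate 2 or DHT with JQ-1 replicate 1 (log2 fold changes -0.27, -0.22 and -0.12), that of ENO2 without DHT replicate 1 or DHT with JQ-1 replicate 2 (0.42 and 0.39), and that of MAD2L1 without DHT replicate 1 or 3 or DHT with JQ-1 replicate 1 or 3 (-0.57, -0.80, -0.61 and -0.76). Genes called on FPKM numbered 9344, and 8477 to 8844 without single replicates. Those on counts numbered 5891, and 5366 to 5580 without single replicates. The Wald test of DESeq2 called 4539 and a two-group test on variance-stabilized counts 4175. The latter after removing the 50% of genes with the lowest variance called 3707, with fewer genes tested. The interaction was called in 5424 to 5817 genes on FPKM and in 1087 to 1476 on counts without single replicates, and in 777 on counts with the Wald test of DESeq2. The call rule of at least 2-fold, chosen after seeing the data, gave 1365 and 1871 genes for the main comparison and 321 and 430 for the interaction, on FPKM and counts. For the V16D list, the median log2 fold change was -0.90, and -0.48 at a cutoff of 1.5-fold, -1.31 at 4-fold and -0.81 on counts. Deviations of samples with the same replicate number were not correlated strongly enough to treat the samples as paired (r of 0.0204 to 0.0866 on counts and -0.262 to 0.188 on FPKM). With 3 such pairs, an absence of pairing cannot be shown. With the replicate number as a block, 9598 and 6170 genes were called in the main comparison and 6462 and 1500 for the interaction, on FPKM and counts, and no named gene lost its call. Without genes overlapping exons on the other strand, an alternative also chosen after seeing the data, 7313 and 4485 were called on FPKM and counts. The few reads counted on genes limit the counts: small changes of weakly counted genes were not detectable at this depth.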

Other observations

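Of 15 tested genes of the BCL2 family, which set the threshold for apoptosis, 5 rose and 6 fell, shares near those of all genes tested (35.5% higher and 43.3% lower). MCL1, a survival factor that overlaps ADAMTSL4 on the other strand, rose from 38.5 ± 0.935 to 54.1 ± 1.55 FPKM (SD, n = 3), and its antagonist BCL2L11 (BIM) rose from 5.98 ± 0.449 to 9.53 ± 0.0487 FPKM. BOK, BID and BCL2L2 fell, from 4.14 ± 0.149 to 1.17 ± 0.123, from 6.97 ± 0.335 to 3.23 ± 0.204 and from 12.6 ± 0.518 to 8.95 ± 0.209 FPKM. BCL2L2 was not called on counts (adjusted p = 0.285 by edgeR), and BOK and BCL2L2 overlap genes on the other strand. BCL2 itself was under the limit for testing, at 0.819 to 0.446 FPKM.

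Most interferon-stimulated genes were hardly expressed: of 30, 11 were tested, 4 rose and 5 fell, again near the shares of all genes. At least a 2-fold decrease was called in 3, against 7.64% of all genes tested. ISG20 and OAS3 reached 1 FPKM with DHT only. IFITM3, an antiviral membrane protein, fell from 32.7 ± 1.32 to 12.9 ± 0.442 FPKM, and OAS3, a sensor of double-stranded RNA, from 1.93 ± 0.0627 to 0.475 ± 0.00624 FPKM. ISG20, an exonuclease, fell from 3.61 ± 0.724 to 0.593 ± 0.221 FPKM. The transcription factors IRF7 and STAT2 rose, from 5.47 ± 0.236 to 11.7 ± 0.519 and from 11.3 ± 0.379 to 19.3 ± 1.03 FPKM.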
